A study of Drosophila melanogaster with 2 samples.

Results

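The genes cabut (cbt) and u-shaped (ush) share a stretch of chromosome arm 2L that holds the strongest peak of tagged Pho in the series. The stretch, chr2L:460000-510000 of the dm6 genome, was chosen by peak strength, so the strength of its strongest peak is described here and not tested. Its members are the 2 genes cbt and ush, of 13945 protein-coding genes annotated on the 6 chromosome arms. It holds 12 of the 4293 summits in the authors' optimal peak list, and 32 of 30000 in their list from pooled reads. The list of replicate 3 has 29 summits there and the list of replicate 4 also has 29, each of 30000 in all.

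All samples belong to 1 group, with no untreated or mutant counterpart. They are whole Drosophila melanogaster embryos, male and female together, collected from 0 to 24 h after laying. The flies were a transgenic line carrying a pho-eGFP fusion, with GFP at the C terminus of Pho, and chromatin was immunoprecipitated, by the labels' description, with an antibody against GFP. The labels' antibody field reads pho instead, and the files do not settle which is meant, so the signal is taken as tagged Pho on the description alone. There are 2 biological replicates, numbered 3 and 4 in the labels, with 1 library each. The labels do not say whether the line also makes untagged Pho, and whole embryos mix all tissues and stages, so a peak gives no cell type or time. A peak's signal value is the number the authors' peak caller gave it. The optimal and pooled lists give the same value at each of the 12 optimal summits, while each replicate list has a scale of its own. Strength is therefore compared by rank or as a multiple of a median, and a ratio between the replicates is read against its median over all shared peaks.

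Pho, a protein with zinc fingers, binds Polycomb response elements, the fly sequences from which Polycomb group proteins keep genes silent. It recognises the word GCCAT and joins Sfmbt in a complex that helps to bring the other Polycomb proteins to their targets; it is also found at many active promoters. Cbt is a zinc finger transcription factor of the TIEG type, required when the epidermis closes over the back of the embryo and induced by sugar through Mondo and its partner. Ush is a multi-zinc-finger protein of the Friend of GATA family that binds GATA factors such as Pannier and Serpent and modulates them, in dorsal tissues and in blood cells.

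The layout of the genes is compact. The gene ush (FBgn0003963) runs on the plus strand of 2L from 476220 to 540560, a span of 64341 bp, with 5 transcripts and 4 distinct starts. Transcripts ush-RD and ush-RE start at 476220, ush-RB at 490835, ush-RA at 523466 and ush-RC at 523736. The gene cbt (FBgn0043364) runs on the minus strand from 479688 down to 476446, a span of 3243 bp, and its 3 transcripts all start at 479688. The whole of cbt therefore lies inside the first intron of ush-RD and ush-RE, on the opposite strand. To the left lie CG4297 (458876 to 472200, minus strand) and MED15 (473013 to 476170, plus strand), a subunit of the Mediator complex. The long noncoding RNA CR46258 shares the ush-RB start at 490835, and CR46259 lies at 500873 to 502236. All 3 cbt transcripts and all 5 ush transcripts had the same exons in the RefSeq annotation.

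The strongest peak lies at chr2L:480806-481339. The 300 bp around its summit are shown because they hold the highest signal value of the optimal list. All sequences below are from the dm6 plus strand, 5′ to 3′, as in RefSeq; capitals mark GCCAT, the core word of Pho, and GAGAG, the word of GAGA factor, on either strand, so that a match on the minus strand appears as its reverse complement. Since cbt is transcribed from the minus strand, its own start lies to the left of the first 2 sequences.
strongest, chr2L:480907-481206: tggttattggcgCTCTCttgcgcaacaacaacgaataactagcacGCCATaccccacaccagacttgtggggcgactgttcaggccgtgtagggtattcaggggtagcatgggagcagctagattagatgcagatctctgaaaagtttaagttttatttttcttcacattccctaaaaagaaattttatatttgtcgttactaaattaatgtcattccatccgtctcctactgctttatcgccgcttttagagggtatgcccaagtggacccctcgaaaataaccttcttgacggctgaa
second, chr2L:479895-480194: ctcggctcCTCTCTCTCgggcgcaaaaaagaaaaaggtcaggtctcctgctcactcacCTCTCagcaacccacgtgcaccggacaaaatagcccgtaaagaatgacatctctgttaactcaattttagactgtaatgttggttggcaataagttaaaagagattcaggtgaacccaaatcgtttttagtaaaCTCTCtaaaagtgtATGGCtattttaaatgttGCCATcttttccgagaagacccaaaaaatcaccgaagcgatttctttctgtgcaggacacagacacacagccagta
In the strongest peak the single GCCAT lies at 480952 to 480956, with its centre 102 bp to the left of the summit, and the single GAGAG match is centred 135 bp to the left. The second peak, nearest to the cbt start, holds 2 GCCAT matches, at 480101 to 480105 on the minus strand and at 480119 to 480123 on the plus strand, centred 59 and 77 bp to the right of its summit. The plus-strand match reads on as GCCATCT, the longer Pho word.

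The peak of the region at 472437, ranked 267 in the optimal list, and the strongest peak deep inside ush are shown for the same words, since both carry GCCAT away from any annotated untranslated region.
upstream of CG4297, chr2L:472343-472579: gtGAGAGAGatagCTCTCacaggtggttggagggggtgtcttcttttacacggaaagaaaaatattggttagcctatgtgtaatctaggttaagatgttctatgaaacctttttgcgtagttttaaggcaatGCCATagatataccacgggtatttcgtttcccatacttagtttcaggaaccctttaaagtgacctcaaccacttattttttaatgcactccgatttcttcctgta
inside ush, chr2L:485829-486029: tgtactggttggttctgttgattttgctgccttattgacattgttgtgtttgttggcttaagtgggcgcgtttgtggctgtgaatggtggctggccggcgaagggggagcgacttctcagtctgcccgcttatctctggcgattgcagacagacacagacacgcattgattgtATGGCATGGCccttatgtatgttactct
The peak upstream of CG4297 has 1 GCCAT at 472475 to 472479, centred 40 bp from its summit. The peak at 485879 has 2 adjoining matches on the minus strand, at 486002 to 486006 and 486007 to 486011, centred 125 and 130 bp from its summit.

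**Figure D1:**
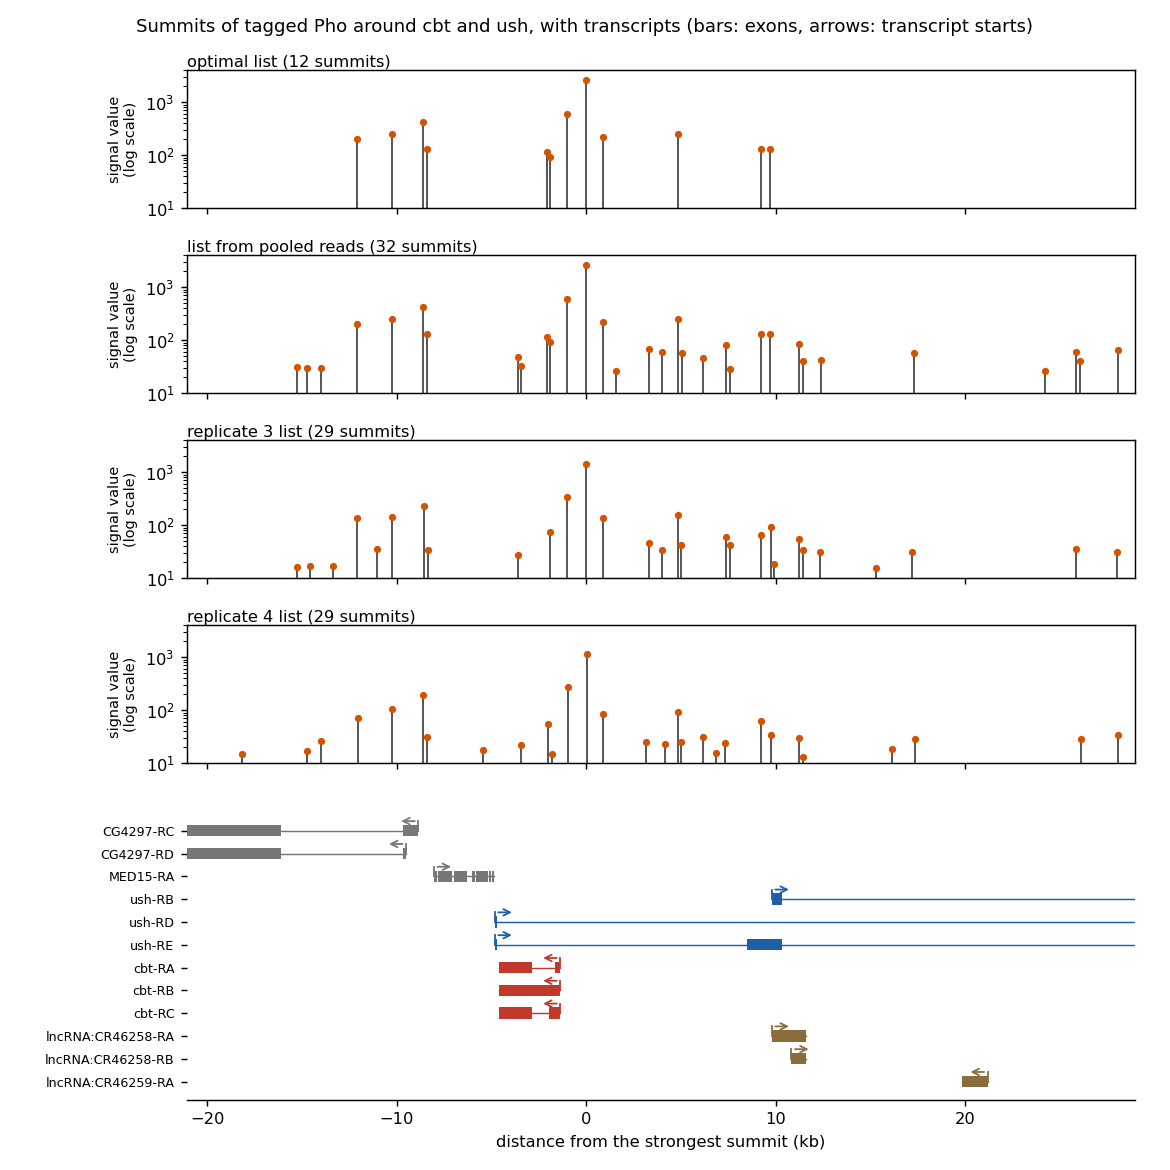
Summits in each of the 4 lists against distance from the strongest summit in kb, with signal value on a log axis and the annotated transcripts of the region at the bottom. The 12 optimal summits fall to the left of and around cbt and in the first part of ush, and the strongest stands above all others in each list.

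The strongest summit, at 481056, is 1368 bp upstream of the cbt start. Relative to ush it is 4836 bp downstream of the ush-RD and ush-RE start, 9779 bp upstream of ush-RB, 42410 bp upstream of ush-RA and 42680 bp upstream of ush-RC. It is thus nearer to the start of cbt than to any start of ush, and lies in an intron of ush. Distance alone does not assign the peak to either gene. The peak is 534 bp wide, a width that 7 of the 4293 optimal peaks reach or exceed, itself included. The most common width of the list is 436 bp, and 8 of the 12 peaks here have their summit at the middle. Width is therefore not read as breadth of binding.

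Its signal value was 2583 in the optimal list, where the next peak anywhere had 2521, a ratio of 1.02. In replicate 3 the peak had 1431 with a summit at 481058 and ranked 2, since another peak of that list had 1537. In replicate 4 it had 1160 with a summit at 481101 and ranked 1, ahead of a peak with 1010. The peak was therefore among the strongest 2 in each replicate, but first place was held in replicate 4 and not in replicate 3. The replicate summits lay 43 bp apart.

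Relative to the median over optimal peaks the strongest peak stood 17.8 times higher in the pooled reads. The multiple was 15.9 in replicate 3 and 19.6 in replicate 4, over the 4053 optimal peaks with a summit within 100 bp in both replicates. Within the region it exceeded the second peak 4.31 times in the optimal list, 4.22 times in replicate 3 and 4.30 times in replicate 4. It carried 42.6% of the summed signal of all 32 pooled entries of the region, which cover 11950 bp. The share was 41.8% of 29 entries covering 11176 bp in replicate 3, and 45.3% of 29 entries covering 11077 bp in replicate 4.

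**Figure D2:**
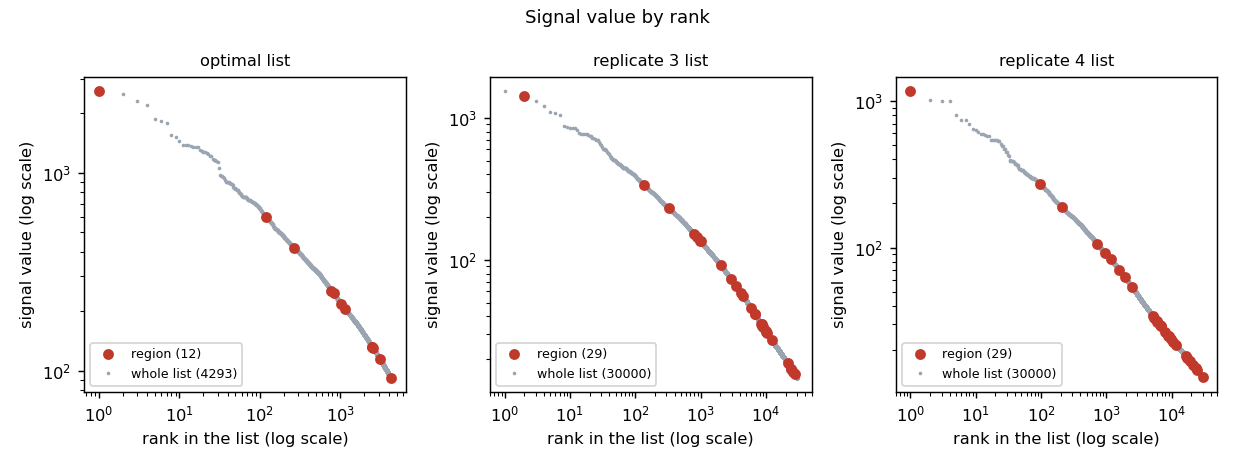
Signal value against rank in the optimal list and in each replicate list, both axes on log scales; red points are peaks with a summit in the region and grey points the whole list. The region supplies rank 1 in the optimal list and in replicate 4 and rank 2 in replicate 3, and its other peaks spread over the rest of each curve.

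Around the cbt start, 5 optimal summits lie within 2500 bp, spread over 2975 bp. The 3 upstream of the start, at 356, 1368 and 2251 bp, together carry 66.4% of the summed signal of the 12 optimal peaks. The summits at 478964, 479163, 480044, 481056 and 481939 follow one another at 199, 881, 1012 and 883 bp. Between neighbouring optimal summits of the region the distances ran from 199 to 6326 bp.

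The second-strongest peak of the region, chr2L:479900-480245, has its summit at 480044, 356 bp upstream of cbt. It had 599 in the optimal list (rank 118), 339 in replicate 3 (rank 137) and 270 in replicate 4 (rank 98). The outer peak upstream of cbt, with its summit at 481939, had 217 in the optimal list (rank 1035), 135 in replicate 3 (rank 1002) and 83.1 in replicate 4 (rank 1172). Both held similar ranks in the replicates.

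The pair inside cbt was weaker, and less even when summits were matched within 100 bp. The peaks at 479163 and 478964 lie 525 and 724 bp downstream of the cbt start, in a 5′ UTR exon or an intron depending on the cbt transcript, and overlap each other. At 479163 the optimal value was 92.0 (rank 4281 of 4293), with 73.8 in replicate 3 (rank 2902) and 14.6 in replicate 4 (rank 24777). At 478964 the optimal value was 114 (rank 3121), with 54.1 in replicate 4 (rank 2462) and no summit within 100 bp in replicate 3. The summit of replicate 3 itself lies at 479128, and those of replicate 4 at 479027, with 54.1, and 479234, with 14.6. The replicate 3 peak, 478908 to 479347, overlaps the stronger replicate 4 peak, 478817 to 479236. Only the weaker replicate 4 summit is within 100 bp of 479163, so the unevenness depends on how summits were matched. The value at 479163 is just above the lowest of the optimal list, 91.9.

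**Figure D3:**
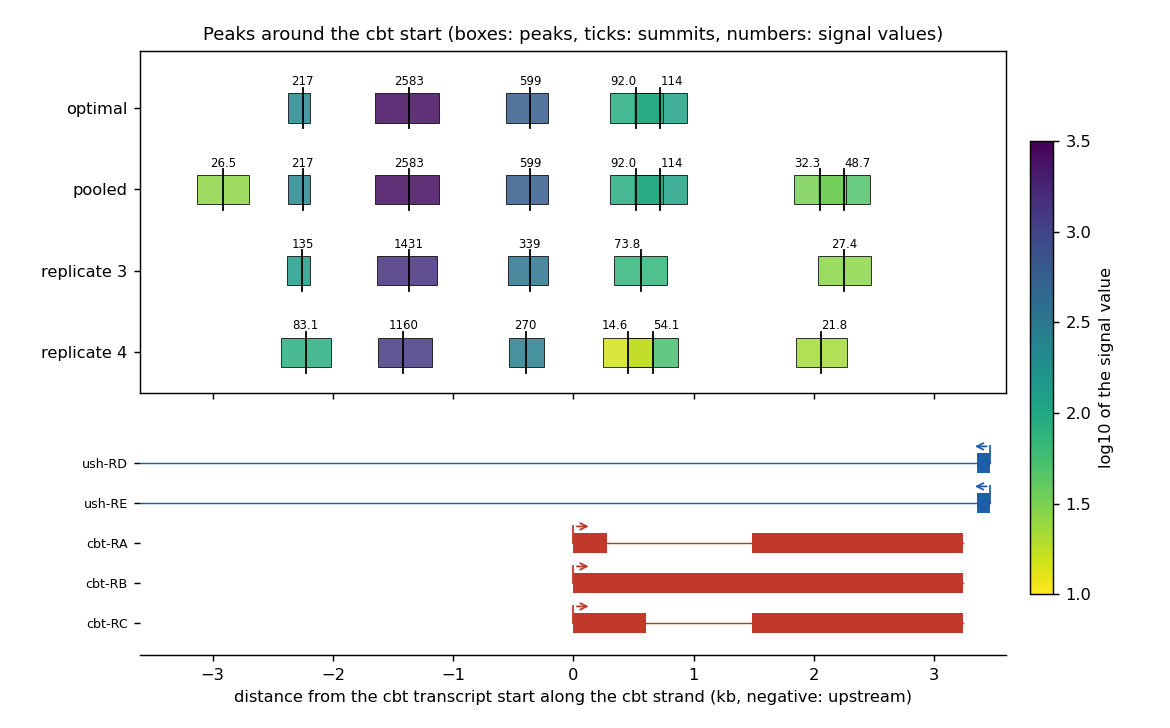
Peaks of each list around the cbt start, along the cbt strand, coloured by log10 signal value, with summit ticks, signal values and the transcripts of cbt and ush. The peaks at 356, 1368 and 2251 bp upstream appear in all 4 lists. The summits of the pair inside cbt lie at different places in the replicates, in overlapping peaks.

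In ush, 10 optimal summits lie within the gene, 8 of them in the region. Protein-coding genes with 5 or more optimal summits in their span made up 0.402% of the genome's 13945, and 6 genes had as many as ush or more, ush included. Of 307 protein-coding genes of 50 kb or longer, 4 had 10 or more and the median was 0. The region was chosen on its peaks, and the span of ush contains cbt. These counts therefore describe that span and support nothing further.

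The summits within the span of ush sit at its front, where cbt also lies. The 10 include the 5 within 2500 bp of the cbt start, which cannot be given to ush alone. From the start at 476220 to the summit at 490771, a stretch of 14551 bp, there are 8 of the 10. The next, at 516293, follows after 25522 bp with no optimal summit, and the last, at 520891, leaves 19669 bp to the end of the gene with none. At 516293 the values were 118 in the optimal list (rank 2956), 61.9 in replicate 3 and 54.1 in replicate 4. At 520891 they were 166 in the optimal list (rank 1707), 110 in replicate 3 and 53.4 in replicate 4. The first lies below and the other above the optimal median of 145.

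The introns of ush differ in the same way. The first intron of ush-RE, 13185 bp long at 476332 to 489516, holds 6 optimal, 15 pooled, 11 replicate 3 and 13 replicate 4 summits. Its 6 optimal summits include the 5 within 2500 bp of the cbt start, which cannot be given to ush alone. The long first intron of ush-RD, 49060 bp at 476332 to 525391, contains that stretch and holds 10 optimal and 37 pooled summits. The intron shared by ush-RB and ush-RE, 34033 bp at 491359 to 525391, has 2 optimal and 20 pooled summits. The intron of all 5 transcripts at 525437 to 536022, 10586 bp long, has 0 optimal, 5 pooled, 3 replicate 3 and 5 replicate 4 summits. The introns after it, 60 to 117 bp long, have none in any list. Over the whole optimal list 41.1% of summits lie in an intron of any protein-coding gene and in no exon of it. That share is not the same measure as a count for ush alone. The summits at 468935 and 470809, in an intron of CG4297, would also count in it. In the region 6 of the 12 optimal summits lie in an intron of ush and in no ush exon. None of the 6 is intronic for every ush transcript, since ush-RA, ush-RB and ush-RC start further right.

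The starts of ush differ in how near an optimal peak comes. At ush-RB, optimal summits lie 570 and 64 bp upstream, at 490265 and 490771, both in a 5′ UTR exon of ush-RE. At 490265 the values were 131 in the optimal list (rank 2508), 66.0 in replicate 3 (rank 3462) and 62.6 in replicate 4 (rank 1930). At 490771 they were 130 in the optimal list (rank 2535), 91.6 in replicate 3 (rank 2044) and 33.3 in replicate 4 (rank 5362). The replicates order this pair in opposite ways, and lncRNA CR46258 starts at the same base as ush-RB, so the peaks cannot be given to one of them.

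The other starts of ush have no optimal summit within 1000 bp. For ush-RD and ush-RE the nearest optimal summit is 478964, 2744 bp downstream, and the nearest pooled summit is 477436, 1216 bp downstream, with 48.7. For ush-RA and ush-RC the nearest optimal summit is 520891, 2575 and 2845 bp upstream. The pooled list has a summit at 523663, between the starts, with 68.3 (rank 6493). Replicate 3 has a summit at 523565, 99 bp downstream of ush-RA, with 44.7 (rank 6121). Replicate 4 has a summit at 523769, 33 bp downstream of ush-RC, with 42.7 (rank 3551). That rank is higher than the 5362 of replicate 4 at 490771. In all, 3 optimal summits lie within 1000 bp of the cbt start and 2 within 1000 bp of a ush start. The share of protein-coding genes with such a summit near any of their starts was 26.1%, a share of genes and not of summits. Counted by summits, 4 of the 12 lie within 500 bp of a start of any protein-coding gene. Among all optimal summits that share was 59.7%.

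The sequences under the ush-RB pair are given as 30-base pieces, since the peaks lie in an untranslated exon; capitals mark GCCATCT in the first and GAGAG in the second.
peak 490265, chr2L:490209-490238: ctttctggggcGCCATCTatgcggaaagcc
peak 490771, chr2L:490723-490752: tCTCTCcCTCTCTCTCTCTCTCcctatctc
At 490265 the GCCATCT at 490220 to 490226 is centred 42 bp from the summit, and a second lies at 490464 to 490470 on the minus strand. At 490771 the window within 50 bp of the summit holds 19 GAGAG matches in 6 runs, the longest of 15 bp at 490730 to 490744 with 6 overlapping matches. No other optimal peak has as many GAGAG matches within 50 bp: 1 of the 4293 windows reaches 19, this one.

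To the left of the gene pair, 4 optimal summits lie in or beside CG4297 and MED15. The strongest of these, at 472437, is 237 bp upstream of a CG4297 start and had 415 in the optimal list (rank 267), 232 in replicate 3 (rank 325) and 189 in replicate 4 (rank 213). Its overlapping neighbour at 472638, 375 bp upstream of MED15, had 131 in the optimal list (rank 2503), 33.9 in replicate 3 (rank 9045) and 31.5 in replicate 4 (rank 5910). The summits at 470809 and 468935 lie in an intron of CG4297, with 254 and 204 in the optimal list, 145 and 137 in replicate 3, and 106 and 70.1 in replicate 4. These 4 summits are thus nearer to other genes than to cbt or ush. The peak inside ush at 485879 had 245 in the optimal list (rank 832), 153 in replicate 3 (rank 800) and 91.4 in replicate 4 (rank 966).

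**Figure D4:**
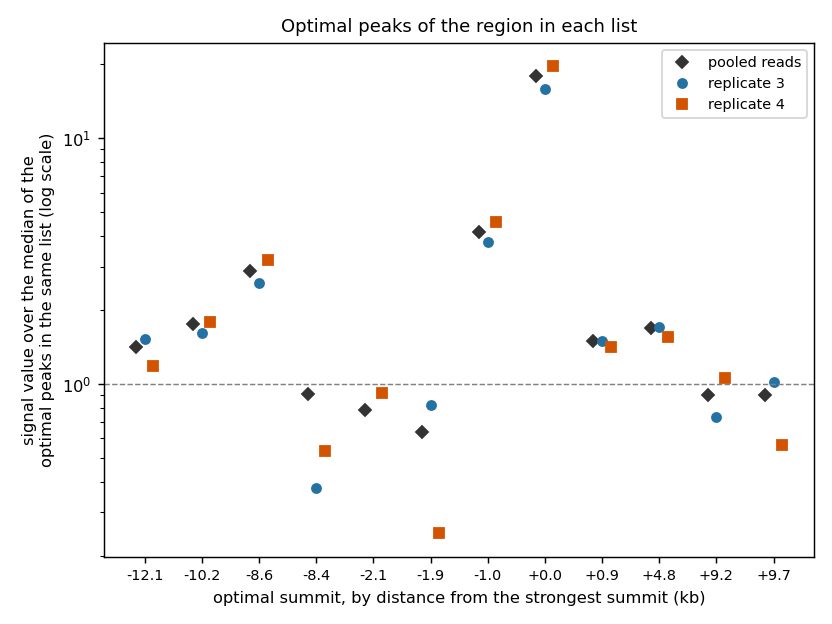
Signal value of the 12 optimal peaks over the median of optimal peaks in the same list, on a log axis, ordered by distance from the strongest summit; diamonds are pooled reads, circles replicate 3 and squares replicate 4. The highest 3 in every list are the peaks at 481056, 480044 and 472437. The replicates lie farthest apart at the peak at 479163, where only the weaker replicate 4 summit is within 100 bp.

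Of the 12 optimal summits, 11 had a summit within 100 bp in both replicates, against 94.4% of all 4293. Replicate 3 had 11 of them and replicate 4 had all 12. The optimal list was made from the reads of both replicates, which also share their control file, so neither replicate is an independent check of it. Over those 11 sites the log2 signal values of the replicates had a Pearson r of 0.92 and a Spearman rho of 0.94; sites of 1 region share their libraries, so this is a description. The log2 ratio of replicate 4 over replicate 3 had a median of −0.60 over all shared optimal peaks, with 5th and 95th percentiles of −1.46 and 0.11. In the region it ran from −2.34, at 479163, to −0.08, at 490265. The value at 479163 sets the replicate 3 summit against the weaker replicate 4 summit there, so it depends on the matching.

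Beyond the optimal peaks, the pooled list has 20 weaker entries in the region, with signal values from 25.7 to 84.5. Of these, 5 had a summit within 100 bp in both replicates, 13 in 1 and 2 in neither. All 5 lie to the right of the cbt start, inside ush. Most of the 20 lie there too, so the side is not read as a trait of the 5. The highest of the 5 is at 492303 with 84.5, and 55.5 in replicate 3 and 29.5 in replicate 4. Of the 29 entries of replicate 3 in the region, 14 had no counterpart within 100 bp in replicate 4. The same number of the 29 entries of replicate 4 had none in replicate 3. No matching shares over the whole pooled and replicate lists are given here, so these counts only describe the region.

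The limits of the region are not where the peaks end. Optimal summits stop short of both limits. In the pooled list summits lie at 509083, inside the upper limit, and at 510773, outside it. Below it the nearest optimal summit, at 442089, had 117 (rank 2992), and the first inside, at 468935, had 204. Above it the last inside, at 490771, had 130, and the next outside, at 516293, had 118. In windows of 50 kb laid over the 6 arms, the median was 1 optimal summit and 1132 of 2674 windows had none. The most in any window was 12, in the window from 450001 to 500000 that holds the summits described here. Overlapping peaks were counted separately, and merged they number 10 in the region. No merged count is given for other windows, 5 of which hold 11 summits, so first place may depend on this choice.

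**Figure D5:**
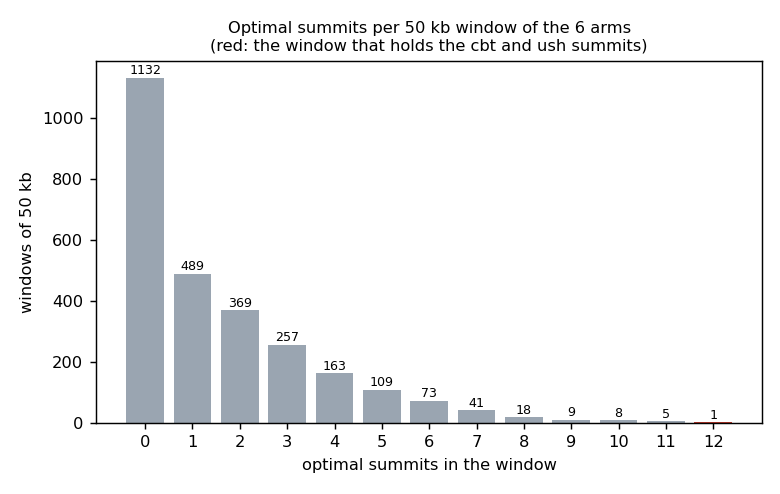
Number of 50 kb windows of the 6 chromosome arms by how many optimal summits they hold; the number above each bar is its count. The single window with 12 summits, marked in red, is the one that holds the cbt and ush peaks, while 1132 windows hold none. Overlapping peaks are counted separately.

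Other DNA words were looked for around each summit, 50 bp to either side and on both strands. GCCAT was present at 2 of the 12 summits, against 15.8% of all optimal windows and 19.7% of tiles of the same length across the arms. GCCATCT was present at 1, against 2.21% and 1.20%. Over whole peaks GCCAT was found in 7 of the 12, against 50.1% of all optimal peaks, and GAGAG in 8, against 42.3%. Overlapping peaks share matches: the GCCAT at 472475 to 472479 is counted for both 472437 and 472638. GAGAG was present at 3 of 12 windows, against 11.2% of optimal windows and 11.4% of tiles, and GTGTG, the word of Combgap, at 2, against 18.6% and 17.1%. GAAAA, the word of Dsp1, was present at 6, against 46.5% and 40.3%. TATAAA, the TATA box, was present at 1, against 16.5% and 11.7%. The E-box CACGTG, a word of basic helix-loop-helix proteins, was present at 1, against 1.33% and 1.17%. AGATAA, bound by GATA factors, was present at 1, against 6.85% and 5.57%. TATCGATA (DREF), GGTCACACT (M1BP), CAGGTAG (Zelda), CCACCC (KLF factors) and TGACTCA (AP-1) had no match within 50 bp of a summit here. The window of the strongest summit held 2 GAAAA and 1 TATAAA and no GCCAT. A match is a description of the letters and not a site.

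The window of the strongest summit was 32.7% G and C, against a median of 37.6% over the 12 windows, 36.6% over all optimal windows and 42.6% over the tiles. The 12 ran from 28.7% at 481939 to 55.4% at 479163.

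A list of 35 genes held partners of ush or cbt, genes of pathways in which they act, and relatives of cbt. All were found in the annotation, and 12 carried an optimal summit at most 1000 bp from a start, 34.3%, against 26.1% of all protein-coding genes. The list was put together with earlier results known, so the count is a description. Of the 5 GATA factors, the partners of ush, 1 had such a summit, grn (147, rank 2100). The blood and dorsal GATA genes srp and pnr had none. Of 5 corepressors and chromatin partners 3 had one: CtBP (193), Caf1-55 (147) and MTA1-like (125). Of 8 genes of the Dpp pathway, a growth factor pathway that acts in dorsal closure, 3 had one: brk (266), a repressor of Dpp target genes, shn (224), which acts with Mad to silence brk, and the signal transducer Mad (196). Of 6 JNK pathway genes 2 had one, Jra (112) and the kinase gene hep (94.5). Among 4 sugar-sensing genes Mondo had 104 and its partner bigmax 387 (rank 325). The KLF and Sp family, relatives of cbt, had none of 6. Sin3A, which encodes a corepressor, had 335 (rank 444). Mi-2 and puc had 5 optimal summits each in their spans with none within 1000 bp of a start, and shn had 13 in its span; srp, pnr, Mi-2 and puc were singled out after their values were seen.

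Likeness was measured as the distance between genes in log2 of the highest signal value, number of optimal summits and share of signal in the strongest entry. Each was in SD units over 5262 genes, and genes sharing the strongest entry were left out. By this measure cbt was most like Lk6, a protein kinase gene, at 1.18 SD, whose strongest peak had 1835 among 3 optimal summits. Tsen34 followed at 1.62 SD and CG31145 at 1.73 SD. The nearest gene to ush was Raf, a protein kinase gene, at 2.90 SD, with 12 optimal summits and a strongest peak of 631; larp followed at 3.23 SD and Tlk at 3.46 SD. The values for ush were 11 optimal summits, counted with 2000 bp on each side, and the same strongest peak of 2583 as for cbt. Its strongest entry held 40.6% of the signal, against 15.8% for Raf. For cbt the values were 4 optimal summits and 74.5%, against 72.3% for Lk6.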

How the data were processed

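Pho-eGFP was profiled by ChIP-seq in 2 biological replicates. The authors deposited peak lists in dm6 and dm3, 4 per build: each replicate, pooled reads and an optimal list. Per the deposited texts, peaks were called against 1 control file, and the optimal list was kept by an irreproducible discovery rate threshold; aligner, caller and versions, and the threshold itself, were not given in the sources used here. Each entry, as deposited, has a signal value, a −log10 q value and a summit offset. Only signal values and positions were used, and read depth is unknown, so no interval or floor is given.

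Summits were placed 1-based (start plus offset) against Ensembl release 115 transcripts, checked against RefSeq, with python 3.11.15, numpy 2.4.6 and matplotlib 3.10.9. A summit was shared when another list had one within 100 bp. Words were searched on both strands within 50 bp, and the search was tested on simulated windows. The genes named were cbt, ush, genes overlapping the region, the genes of the list with a summit within 1000 bp of a start, and the 3 genes most like each member; srp, pnr, Mi-2 and puc fall outside this rule and were added after their values were seen. The region, members and lists were chosen with earlier results of these data known. No test was run, because the region was chosen on its signal and the study has 1 group. Alternatives tried are given in the closing section.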

Additional observations from a re-analysis of the deposited data

How the results depend on the processing

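Over 10 results, 37 values were recomputed under another choice. Counts were held to a limit of 1.5 times, and the rank, share and distances to 1 SD between the replicates, which for the share and distances is a narrower limit; 11 values went past their limit and 0 reversed. The count of 12 optimal summits fell to 7 among the strongest 2146 entries of the optimal list. It was 10 with overlapping optimal peaks merged. Leaving 1 replicate out meant using the other replicate's own list, and no peaks were called anew. Among the strongest 4293 entries of that list, the region held 9 for replicate 4 and 11 for replicate 3. These are not all optimal summits. The rank of the strongest peak was 1 to 2 with 1 replicate left out. Its share of the region's signal, 42.6%, was 41.8% to 45.3% with 1 replicate left out and 50.5% in the optimal list. Its distance to the cbt start, −1368 bp, was −1413 to −1370 bp, and to the nearest ush start, 4836 bp, was 4838 to 4881 bp. With the RefSeq annotation, chosen after seeing the data for ush, it stayed at 4836 bp. Summits within 1000 bp of a start of either gene numbered 5, and 2 within 500 bp. Summits in introns of cbt or ush numbered 6, and 0 where every transcript of the gene had to be intronic there. Word matches, counted once for each word and summit, numbered 17 within 50 bp, 6 within 25 bp, 32 within 100 bp and 45 over whole peaks. The other counts stayed within 1.5 times. No paired analysis was possible because the study has 1 group and no test was run. Read depth is unknown, so the weakest peaks cannot be given a counting error.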
